A study of Homo sapiens with 8 samples.

Results

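The replication-dependent histone genes were described in DU145, a human prostate cancer cell line, on 8 Affymetrix Human Gene 1.0 ST arrays. Members were the probesets whose platform annotation gave a single gene symbol that, in old or current naming, belongs to the clustered H1, H2A, H2B, H3 or H4 genes, with pseudogenes left out. The choice used names and no measured value. It gave 57 probesets of the 33297 on the array, each for a different gene: 6 for H1, 14 for H2A, 16 for H2B, 8 for H3 and 13 for H4. All 57 were kept whatever their signal. Probe sequences were not at hand, so that sharing of probes between near-identical histone genes could not be checked.

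The 4 groups, with 2 arrays each, were Mock, FGF19, TNFα and FGF19 + TNFα. All cells were moved to serum-free medium on the day before treatment, and Mock cells were left untreated. According to the sample labels, FGF19 cells received 50 ng/ml FGF19 with 100 µg/ml heparin for 100 min, and TNFα cells received 50 ng/ml TNFα for 90 min. FGF19 + TNFα cells received FGF19 with heparin first and TNFα at the same dose for the last 90 min. The methods of the study state lower doses of heparin and of TNFα than the labels do. FGF19 is a hormone-like growth factor that acts through FGFR4, and TNFα is a cytokine of inflammation and an activator of NFκB. Every array with FGF19 also had heparin and no other array did, so that effects of FGF19 and of heparin cannot be told apart. The labels call the arrays of a group biological replicates and say nothing more of the dishes, so that p-values measure the spread between these arrays.

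Replication-dependent histones package newly made DNA, and their genes are transcribed mainly in S phase. H2A, H2B, H3 and H4 form the core of the nucleosome, whereas H1 binds the linker DNA between nucleosomes. Most of their mRNAs end in a stem-loop in place of a poly(A) tail. The stem-loop is bound by SLBP, and transcription at the clusters depends on the cyclin E/CDK2 substrate NPAT. Some of the H2B genes, among them H2BC4, H2BC5, H2BC12 and H2BC21, are known to make polyadenylated transcripts too. The proteins of a type differ little between genes, and the array cannot separate a change in the share of cells in S phase from a change in RNA per cell.

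The DNA before 6 members is shown because the expression results below turn on them: H2AC4, H3C2, H4C2 and H1-4 had lower signal with FGF19, and H2BC14 and H1-6 had higher signal. The sequences are the 250 bases before the start of the gene, taken 5′ to 3′ on the strand of the gene from RefSeq on build GRCh38.p14. Capitals mark matches to 4 short motifs on either strand, none of which overlap in these windows. The TATA box was searched as TATAAA. The second motif, common before histone and other genes, was CCAAT. The octamer, known from H2B promoters, was searched as ATTTGCAT. A motif known from H1 promoters was searched as AAACACA.
H2AC4, chr6:26033619-26033868, minus strand: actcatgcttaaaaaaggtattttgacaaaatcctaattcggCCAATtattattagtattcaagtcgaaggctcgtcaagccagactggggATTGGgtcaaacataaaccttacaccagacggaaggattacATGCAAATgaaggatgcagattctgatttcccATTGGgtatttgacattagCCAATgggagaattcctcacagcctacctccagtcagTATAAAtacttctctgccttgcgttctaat
H2BC14, chr6:27814772-27815021, plus strand: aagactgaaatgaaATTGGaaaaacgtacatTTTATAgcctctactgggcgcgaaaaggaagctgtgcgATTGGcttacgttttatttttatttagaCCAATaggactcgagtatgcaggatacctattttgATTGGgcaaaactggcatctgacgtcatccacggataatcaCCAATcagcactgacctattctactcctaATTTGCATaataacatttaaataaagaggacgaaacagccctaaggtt
H3C2, chr6:26032100-26032349, minus strand: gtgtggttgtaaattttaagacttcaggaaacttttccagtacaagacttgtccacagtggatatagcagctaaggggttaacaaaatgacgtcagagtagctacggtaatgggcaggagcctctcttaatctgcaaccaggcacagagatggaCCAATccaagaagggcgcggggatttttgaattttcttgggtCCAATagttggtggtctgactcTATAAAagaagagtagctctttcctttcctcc
H4C2, chr6:26027284-26027533, minus strand: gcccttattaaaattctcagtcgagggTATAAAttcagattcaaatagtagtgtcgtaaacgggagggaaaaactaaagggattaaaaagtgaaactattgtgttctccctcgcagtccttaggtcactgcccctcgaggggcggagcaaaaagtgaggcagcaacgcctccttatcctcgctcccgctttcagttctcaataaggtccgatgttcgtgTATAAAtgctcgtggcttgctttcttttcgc
H1-4, chr6:26156079-26156328, plus strand: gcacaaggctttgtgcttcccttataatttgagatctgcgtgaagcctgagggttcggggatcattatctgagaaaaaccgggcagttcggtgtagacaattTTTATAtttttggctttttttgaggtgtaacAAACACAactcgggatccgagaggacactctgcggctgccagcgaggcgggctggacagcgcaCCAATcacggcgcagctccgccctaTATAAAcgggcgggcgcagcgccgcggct
H1-6, chr6:26108136-26108385, minus strand: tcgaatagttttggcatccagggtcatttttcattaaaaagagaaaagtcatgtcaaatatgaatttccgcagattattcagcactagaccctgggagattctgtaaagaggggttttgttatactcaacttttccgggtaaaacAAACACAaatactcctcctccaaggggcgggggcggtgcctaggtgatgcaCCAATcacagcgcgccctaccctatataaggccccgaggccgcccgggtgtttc
A TATAAA began 30 bases before the start of H2AC4, 32 before H3C2, 31 before H4C2 and 29 before H1-4. In the windows of H2BC14 and H1-6 these letters did not occur on the gene's strand, and that of H2BC14 held them only in reverse, toward its neighbor H2AC14. The H1-6 window held the near match TATAAG, which was not searched. The octamer lay 48 to 41 bases before the start of H2BC14 and in reverse before H2AC4. CCAAT began 54 bases before both H1-4 and H1-6, and AAACACA began 117 bases before H1-4 and 105 before H1-6.

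Windows were at hand for 52 of the 57 members; H2AC12, H3C11, H3C12, H4C1 and H4C3 had none in the table used. TATAAA was found before 34 of the 52 (65.4%, against 10.7% of all 35116 promoters) and CCAAT before 44 (84.6%, against 32%). The octamer was found before 10 of 13 H2A and 13 of 16 H2B genes and before no H1, H3 or H4 gene, which made 44.2% of members against 1.63% of all promoters. AAACACA was found before all 6 H1 genes and no other member (11.5%, against 4.82%). Among the 26 genes with a window that were lower with FGF19, TATAAA was found before 18 (69.2%), CCAAT before 21 (80.8%), the octamer before 12 (46.2%) and AAACACA before 2 (7.69%), and among the 22 genes that did not pass in either direction before 14 (63.6%), 19 (86.4%), 9 (40.9%) and 3 (13.6%). Among the 4 higher genes, TATAAA was found before 2 (50%), CCAAT before 4 (100%), the octamer before 2 (50%) and AAACACA before 1 (25%). In 9 pairs of H2A and H2B genes, described below, the starts lie 215 to 248 bases apart in opposite directions. The windows of such a pair cover nearly the same DNA, so that a match mostly counts for both genes. Where the genes of a pair differ in call, the same stretch counts under both calls. The shares by type and by call are therefore not separate. A match is a run of letters and not a measured binding site.

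The first comparison asked what FGF19 did without TNFα. H2A, H3 and H4 genes were mostly lower with FGF19 and none of them was higher, whereas 3 H2B genes were lower and 3 higher. Of the 57 genes, 31 were lower in FGF19 than in Mock, 4 were higher and 22 did not pass the test in either direction (limma, Benjamini-Hochberg adjusted p under 0.05 over all probesets, n = 2 arrays per group). Over all probesets, 14.1% were lower and 18.2% were higher by the same test. Histone probesets were brighter than most, and of the 38 members above the median mean signal of all probesets 22 were lower, against 24.5% of all such probesets. The median log2 difference of members was −0.58, against 0.08 over all probesets. By 2-fold or more, 11 genes were called lower and 2 higher, beside 931 and 979 of all 33297 probesets. By type, lower and higher genes numbered 2 and 1 of 6 for H1, 13 and 0 of 14 for H2A, 3 and 3 of 16 for H2B, 5 and 0 of 8 for H3, and 8 and 0 of 13 for H4.

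In the second comparison, FGF19 + TNFα against TNFα, which shares no array with the first, 25 members were lower, 2 were higher and 30 did not pass. Here 12.9% of all probesets were lower and 19.4% higher. Of the 38 brighter members 21 were lower, against 22% of probesets above the median signal. The median was −0.34, against 0.10 over all probesets. Lower and higher genes numbered 1 and 1 for H1, 11 and 0 for H2A, 2 and 1 for H2B, 3 and 0 for H3, and 8 and 0 for H4. The same 23 genes were lower in both comparisons, and H2BC14 and H1-6 were higher in both. The share of all probesets called in both comparisons was not computed, so that these counts have no reference. The log2 differences of the 57 genes in the 2 comparisons had the same sign for 48. They correlated across genes at r = 0.919 (rho = 0.91, n = 57). Over all probesets r was 0.644, but this includes dim probesets and zeros that were replaced before log2. In the first comparison all probesets spanned −9.62 to 10.74, and members −1.76 to 1.45. The share of equal signs over all probesets, and r among brighter probesets, were not computed. Whether members were more reproducible than probesets of like signal was therefore not tested. Probesets on an array share its processing and are not independent. The 2 comparisons share no array, but both used 1 estimate of spread per probeset from all 8 arrays. Their calls are therefore not independent.

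**Figure D1:**
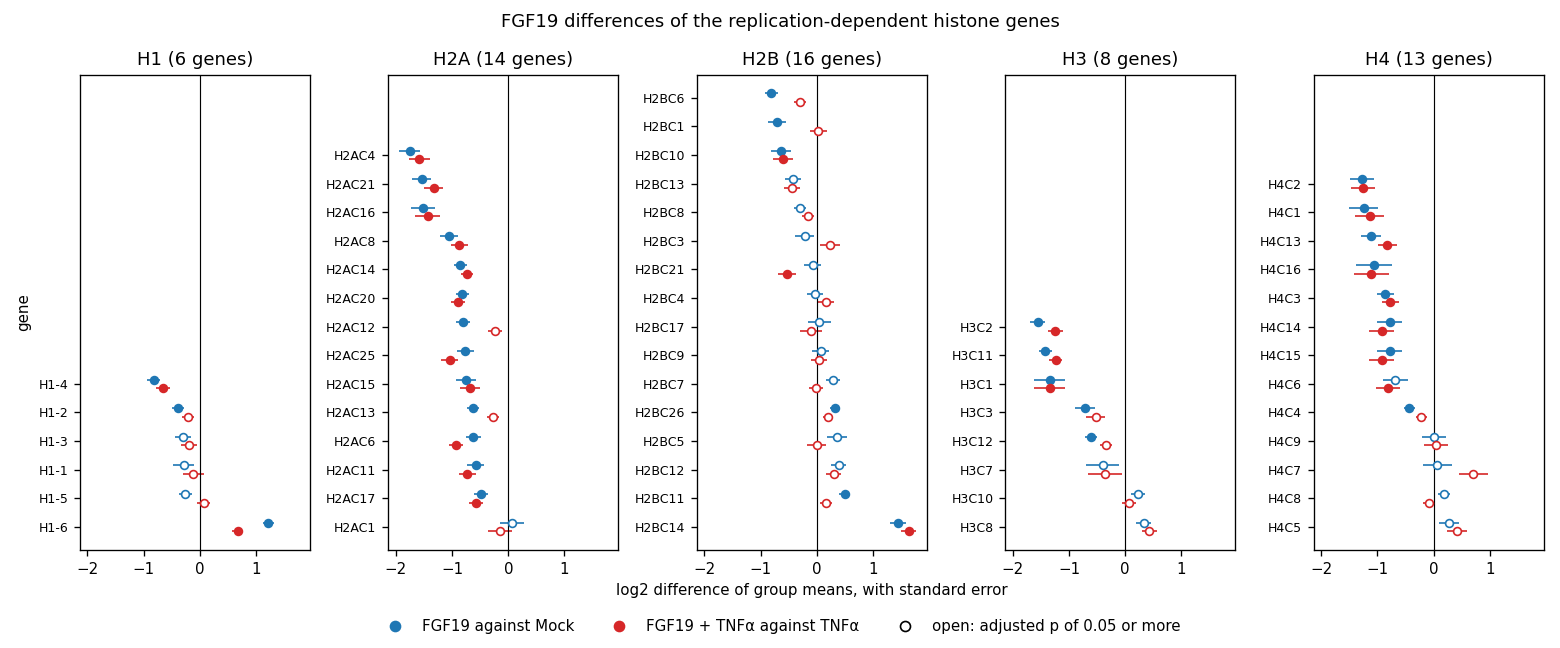
Log2 difference of each of the 57 histone genes, by type, for FGF19 against Mock (blue) and FGF19 + TNFα against TNFα (red), with bars of 1 standard error from limma and open points for an adjusted p of 0.05 or more. In the H2A panel 13 of 14 blue points are filled and lie below 0, whereas the H2B panel is centered near 0 with H2BC14 far to the right.

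Without regard to a test, all 4 arrays with FGF19 lay below all 4 arrays without it for 31 members and above them for 6. Over all probesets these shares were 18.4% and 25.5%. The H2A genes had 13 of 14 below, and the H4 genes 9 of 13. These counts rest on small groups: without Mock replicate 1 the first comparison called 22 members and without Mock replicate 2 it called 16. Without either TNFα array or either FGF19 + TNFα array, the second comparison called 14 to 17.

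Of the linker histones, H1-4 was lower and H1-6 higher with FGF19, and the other 4 had smaller differences. H1-4, a main H1 of dividing cells, had a signal of 2828 and 2599 in Mock, 1384 and 1695 after FGF19, 2593 and 2491 after TNFα, and 1560.3 and 1676 after both. All 4 FGF19 arrays were below the other 4. The fall was 1.77-fold without TNFα (log2 difference −0.82 with a standard error of 0.12, limma adjusted p = 0.00505) and 1.57-fold with it (−0.65, standard error 0.12, adjusted p = 0.0109), and the latter was not called without TNFα replicate 1 or without FGF19 + TNFα replicate 1. H1-6, known as the H1 of the testis, had 55.5 and 60.6 in Mock, 126 and 144 after FGF19, 87.9 and 83.1 after TNFα, and 138 and 135 after both. All FGF19 arrays were above the rest, and the TNFα arrays lay between Mock and FGF19. The rise of H1-6 was 2.33-fold without TNFα (log2 difference 1.22 with a standard error of 0.10, limma adjusted p = 0.00275) and 1.60-fold with it (0.67, standard error 0.10, adjusted p = 0.00602).

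H1-2, also a widely expressed H1, had 868 and 903 in Mock and 618 and 733 with FGF19, a log2 difference of −0.40 (standard error 0.11, adjusted p = 0.0348 from limma). It did not pass in the second comparison (−0.21, adjusted p = 0.186), and its call in the first was lost in 9 of 16 other settings. H1-1, H1-3 and H1-5 did not pass in either comparison. For H1-5 the difference was −0.26 without TNFα (95% interval −0.54 to 0.02) and 0.07 with it (−0.21 to 0.34), so that a moderate fall without TNFα is within its interval.

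The H2A genes were lower nearly throughout, with log2 differences from −1.76 to 0.06 and a median of −0.78 without TNFα, and from −1.58 to −0.14 with a median of −0.80 in its presence. H2AC4 fell most of all members: its signal was 444 and 494 in Mock, 114 and 168 after FGF19, 300 and 308 after TNFα, and 110.1 and 93.5 after both. No FGF19 array reached the lowest array without FGF19, and the TNFα arrays lay between Mock and FGF19. The fall was 3.38-fold without TNFα (log2 difference −1.76 with a standard error of 0.19, limma adjusted p = 0.00288) and 2.99-fold with it (−1.58, standard error 0.19, adjusted p = 0.00383). H2AC21 had 1769.9 and 2053 in Mock, 554 and 775 after FGF19, 1651 and 1637 after TNFα, and 657 and 653 after both. Here the TNFα arrays were close below Mock, and the FGF19 arrays were far below either. H2AC21 fell 2.91-fold and 2.51-fold in the 2 comparisons (log2 differences −1.54 and −1.33, each with a standard error of 0.17, adjusted p = 0.00288 and 0.00407). A brighter set of values, held by probesets annotated to H2AC18, H2AC19, H2AC20 and H2AC21, fell less (−0.62 and −0.55, limma adjusted p = 0.00774 and 0.012).

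H2AC16 and H2AC8 were the other H2A genes lower by over 2-fold without TNFα. H2AC16 had 395 and 380.0 in Mock, 109 and 169 after FGF19, 312 and 358 after TNFα, and 112 and 136 after both (log2 differences −1.52 and −1.43, adjusted p = 0.00469 and 0.00603 from limma). H2AC8 had 418 and 514, 197 and 254, 363 and 361, and 206 and 191 in the same order (−1.05 and −0.87, adjusted p = 0.00523 and 0.0101). Both genes were lower on every FGF19 array than on any other. H2AC25, from the small cluster on chromosome 1, passed 2-fold only with TNFα present, at 110.4 and 120 with TNFα against 63.2 and 49.0 with FGF19 + TNFα (−1.05, standard error 0.15, adjusted p = 0.00503), but whether this differed from its fall without TNFα (−0.76) was not shown by the interaction test. H2AC12 and H2AC13 were lower without TNFα (−0.80 and −0.62) and did not pass with it (−0.24 and −0.27). A probeset annotated to H2AC13 and H3C10 was not called in either comparison (−0.09 and 0.055, limma adjusted p = 0.665 and 0.795). H2AC6, H2AC11, H2AC14, H2AC15, H2AC17 and H2AC20 were lower in both comparisons, with log2 differences of −0.49 to −0.85 without TNFα and −0.58 to −0.93 with it. A probeset annotated to H2AC15 and H2BC15 was not called in either (−0.11 and 0.04, limma adjusted p = 0.542 and 0.831). H2AC1, a testis H2A, was the H2A gene that passed in neither comparison (0.06, 95% interval −0.46 to 0.58, and −0.14, −0.66 to 0.38).

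The H2B genes had medians of 0.01 in both comparisons. Their 3 lower and 3 higher of 16 genes are close to the shares of all probesets, 14.1% and 18.2%. With TNFα present 2 were lower, close to 12.9% of all probesets, and 1 was higher, under the share of 19.4%. Of the genes lower without TNFα, H2BC1 was dim. H2BC14 rose most of all members: it had 171 and 160 in Mock, 461 and 440.4 after FGF19, 164 and 129 after TNFα, and 427 and 481 after both. The FGF19 arrays were far above the rest, and Mock and TNFα arrays overlapped. The rise was 2.73-fold without TNFα (log2 difference 1.45 with a standard error of 0.14, limma adjusted p = 0.00276) and 3.11-fold with it (1.64, standard error 0.14, adjusted p = 0.00348), and it was called in all 16 other settings run for each comparison. H2BC11 had 394 and 397 in Mock and 518 and 600.0 with FGF19, a 1.41-fold rise (log2 difference 0.50, adjusted p = 0.0157), which was lost without either Mock array. H2BC11 did not pass with TNFα present (467 and 467 against 551 and 494, log2 difference 0.16, adjusted p = 0.295). H2BC26 rose 1.25-fold without TNFα (0.32, adjusted p = 0.04), a call lost in 12 of 16 other settings.

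Lower H2B genes were H2BC6, H2BC10 and H2BC1 without TNFα and H2BC10 and H2BC21 with it. H2BC6 had 118 and 133 in Mock, 66.6 and 77.1 after FGF19, 83.7 and 89.5 after TNFα, and 69.6 and 71.3 after both. The FGF19 arrays were below the others, with a log2 difference of −0.81 without TNFα (standard error 0.11, adjusted p = 0.00431 from limma) and −0.30 with it (adjusted p = 0.091). H2BC10, at 44.3 and 60.2 in Mock and 32.7 and 34 with FGF19, lost its calls in 7 and 8 of 16 other settings of the 2 comparisons. H2BC1, the testis H2B, was below the 20th percentile of every array of Mock and FGF19, so that no fold is given.

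The remaining H2B genes did not pass without TNFα. H2BC12 had 1484 and 1744 in Mock, 2334 and 1898 after FGF19, 1550.4 and 1529 after TNFα, and 1916 and 1873 after both. Its 4 FGF19 arrays were above the other 4, yet the log2 differences of 0.39 (95% interval 0.07 to 0.71, adjusted p = 0.0681 from limma) and 0.30 (−0.02 to 0.62, adjusted p = 0.131) did not pass. H2BC4 differed by −0.03 (95% interval −0.38 to 0.32) and H2BC9 by 0.07 (−0.28 to 0.42) without TNFα, and their arrays overlapped between the groups. H2BC3, H2BC5, H2BC7, H2BC8, H2BC13 and H2BC17 passed in neither comparison, with differences of −0.42 (H2BC13) to 0.36 (H2BC5) without TNFα. H2BC21 differed by −0.07 without TNFα (adjusted p = 0.751) and was lower with it, at 627 and 715 with TNFα against 493 and 436 with FGF19 + TNFα (−0.53, adjusted p = 0.0452), a call lost in 8 of 16 other settings. A brighter probeset annotated to H2BC21, H2BC19P and H2BC20P was lower without TNFα (−0.32, limma adjusted p = 0.04) and not called with it (−0.18, adjusted p = 0.169). Another, annotated to H2BC21, H2BC18 and H2BP1, was called lower only with TNFα present (−0.10 and −0.36, adjusted p = 0.374 and 0.0191).

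**Figure D2:**
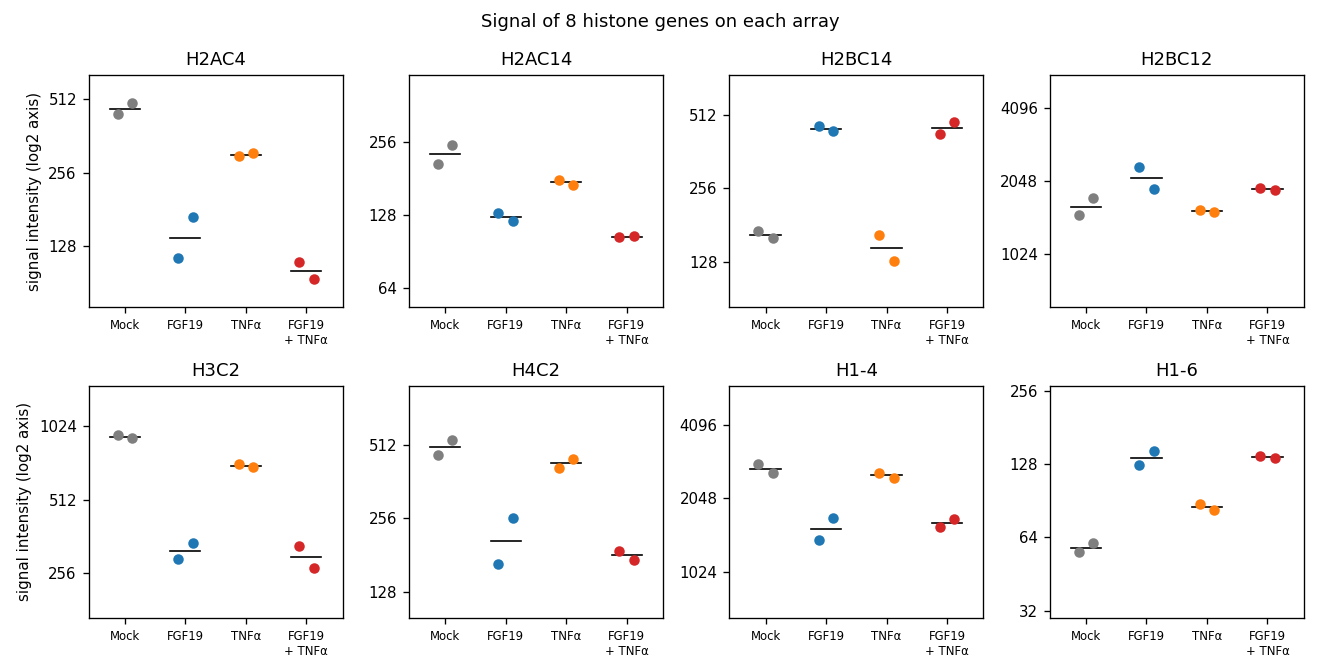
Linear signal intensity on a log2 axis for 8 histone genes on each of the 8 arrays, with a line at the geometric mean of each group and every panel on its own scale. H2AC4, H3C2, H4C2 and H1-4 are lower on the 4 FGF19 arrays, H2BC14 and H1-6 are higher, and H2AC14 falls where its neighbor H2BC14 rises.

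Many H2A and H2B genes lie head to head, transcribed in opposite directions from a short shared stretch. From the start sites of RefSeq, 9 pairs of members had this arrangement, with starts 215 to 248 bases apart. The pair of H2AC1 and H2BC1 is left out of the counts, because H2BC1 was below the 20th percentile. In the other 8 pairs, without TNFα, the H2A gene was lower in 8 and the H2B gene was lower in 0 and higher in 3 (H2BC14, H2BC11 and H2BC26, the last a call lost in 12 of 16 other settings). With TNFα present the H2A gene was lower in 7, and the H2B gene was lower in 1 (H2BC21) and higher in 1 (H2BC14). The median log2 difference was −0.69 for these H2A genes and 0.01 for these H2B genes without TNFα, and −0.80 and 0.03 with it. In H2AC14 and H2BC14, whose starts are 245 bases apart, the shared stretch is the H2BC14 window printed above. H2AC14 had 208 and 249 in Mock, 131 and 121 after FGF19, 178 and 171 after TNFα, and 104 and 105 after both. Its FGF19 arrays were all below the others, opposite to those of H2BC14, with log2 differences of −0.85 (adjusted p = 0.0037 from limma) and −0.74 (adjusted p = 0.00576).

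The change within a pair was also described by the log2 ratio of the H2A to the H2B signal of each array, with no test, since the ratio was chosen after the differences were seen. On the FGF19 arrays the mean ratio of H2AC14 to H2BC14 was 5.06-fold lower than on the other 4, that of H2AC25 to H2BC26 2.24-fold and that of H2AC11 to H2BC11 1.97-fold. It was also lower for H2AC6 and H2BC4 (1.79-fold), H2AC8 and H2BC8 (1.67-fold) and H2AC20 and H2BC21 (1.47-fold). In each of these 6 pairs all 4 FGF19 ratios were below the other 4. The ratios overlapped for H2AC17 and H2BC17 (1.42-fold lower) and for H2AC13 and H2BC13 (1.01-fold lower). How often ratios of other probeset pairs separate in this way was not computed, so that the 6 pairs have no reference. For single probesets, all 4 FGF19 arrays lay below the other 4 in 18.4% and above them in 25.5%.

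**Figure D3:**
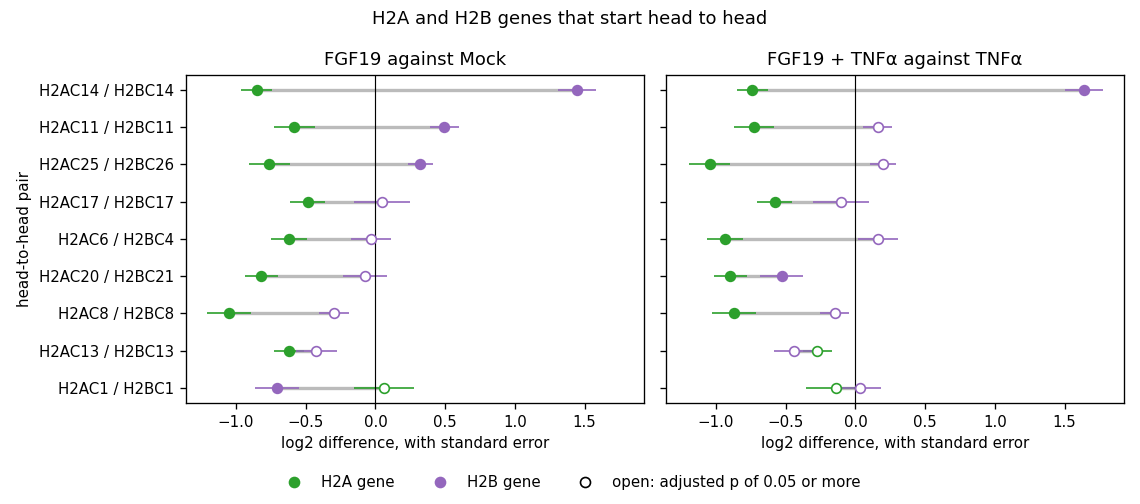
Log2 differences of 9 head-to-head pairs, with the H2A gene in green, the H2B gene in purple, bars of 1 standard error from limma and open points for an adjusted p of 0.05 or more. The left panel is FGF19 against Mock, where the H2A point lies to the left of the H2B point in 8 of 9 pairs, the exception being the pair with H2BC1, whose signal was below the 20th percentile, and the right panel is FGF19 + TNFα against TNFα.

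Among H3 genes, 3 fell by over 2-fold in both comparisons. H3C2 had 940.0 and 919 in Mock, 293 and 341 after FGF19, 715 and 694 after TNFα, and 331 and 267 after both. The FGF19 arrays were far below all others, and the TNFα arrays were below Mock. H3C2 fell 2.94-fold without TNFα (log2 difference −1.56 with a standard error of 0.13, limma adjusted p = 0.00275) and 2.37-fold with it (−1.24, standard error 0.13, adjusted p = 0.00348). H3C11 had 818 and 885, 300.4 and 337, 605 and 574, and 269 and 232 in the same order, with falls of 2.67-fold and 2.36-fold (log2 differences −1.42 and −1.24, adjusted p = 0.00275 and 0.00348). As with H3C2, the FGF19 arrays did not overlap with the rest.

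H3C1 had a like fall with a wider spread, at 184 and 190.2 in Mock, 56.4 and 95.8 after FGF19, 153 and 149 after TNFα, and 50.2 and 70.4 after both (log2 differences −1.35 and −1.35, standard error 0.27, adjusted p = 0.0123 and 0.0135 from limma). Its call in the first comparison was lost without either Mock array, and in the second without either TNFα array or FGF19 + TNFα replicate 1. H3C3 (−0.71) and H3C12 (−0.61) were lower without TNFα and did not pass with it (−0.53 and −0.34, adjusted p = 0.0623 and 0.0594). H3C7, H3C8 and H3C10 did not pass in either comparison. H3C10, with a signal of 352 and 337 in Mock and 383 and 423 with FGF19, differed by 0.22 (95% interval −0.08 to 0.53).

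Of the H4 genes, whose proteins are nearly all the same, 8 were lower in each comparison and none higher. H4C2 had 467 and 538 in Mock, 166 and 257 after FGF19, 414 and 449 after TNFα, and 189 and 172 after both. The groups with FGF19 did not overlap with those without it. H4C2 fell 2.43-fold and 2.39-fold (log2 differences −1.28 and −1.26, each with a standard error of 0.21, adjusted p = 0.00663 and 0.00778 from limma). H4C13 had 644 and 766, 287 and 367, 607 and 511, and 292 and 337 in the same order (−1.11 and −0.83, adjusted p = 0.00561 and 0.0151). H4C1 had 211 and 255, 74.5 and 128, 235 and 206, and 108 and 92.5 (−1.25 and −1.14, adjusted p = 0.0144 and 0.0206). Both were lower on all 4 FGF19 arrays than on the rest, though H4C1 lost its first call without Mock replicate 2 and its second without any of the 4 arrays compared.

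H4C3, H4C14, H4C15 and H4C16 were also lower in both comparisons. The probesets of H4C14 and H4C15 held identical values on every array (772 and 945 in Mock, 400.5 and 616 with FGF19) and are 1 measurement, whose call with TNFα present was lost in 5 of 16 other settings. A second set of values, held by probesets annotated to both genes, was not called in either comparison (968 and 964 in Mock, 818 and 1048 with FGF19, log2 differences −0.06 and −0.34, adjusted p = 0.767 and 0.114). Counted once, H4C14 and H4C15 bring the 31 and 25 lower genes to 30 and 24. H4C16, a lone gene on chromosome 12, had low signal, at 64.5 and 66.5 in Mock and 26 and 38 with FGF19 (−1.06, adjusted p = 0.0462 from limma), and lost each of its calls in 8 of 16 other settings. H4C8, at 951 and 914 in Mock and 967 and 1159 with FGF19, did not pass (0.18, 95% interval −0.08 to 0.45), nor did H4C9 (0.01, −0.51 to 0.53). H4C4 was lower without TNFα (−0.44, adjusted p = 0.0192) and not with it, and H4C6 with TNFα (−0.82, adjusted p = 0.0325) and not without it. H4C5 and H4C7 were below the 20th percentile of every array in at least 1 comparison and did not pass.

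**Figure D4:**
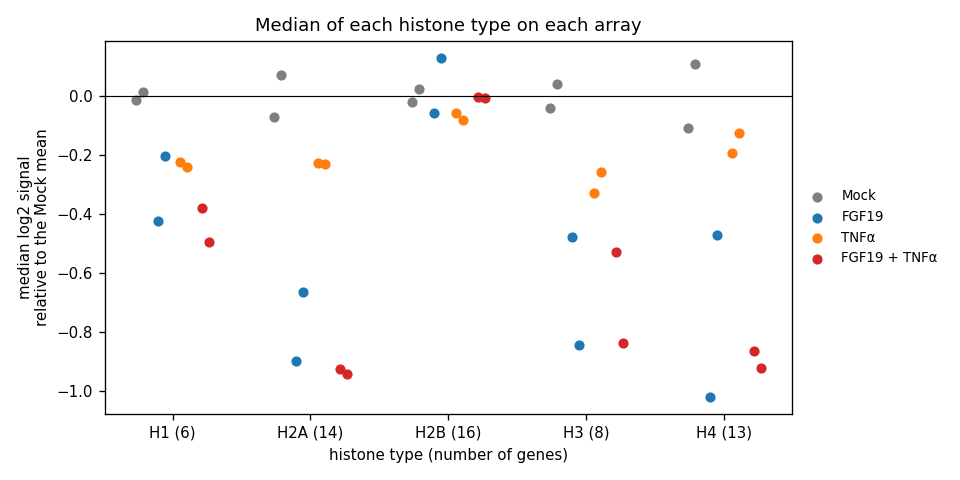
Median over the genes of each histone type of log2 signal relative to the Mock mean, with 1 point per array. The FGF19 and FGF19 + TNFα arrays lie at −0.66 to −0.94 for H2A and at −0.06 to 0.13 for H2B, and the TNFα arrays lie between −0.06 and −0.33 for all types.

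No histone gene passed the test for TNFα alone. In TNFα against Mock 0 of 57 members passed by limma, where 1.06% of all probesets did. At an unadjusted p under 0.05 there were 11 members, beside 4146 of all 33297 probesets. The median was −0.18 and 44 of 57 differences were below 0. Over all 33297 probesets the median was −0.04 and 19122 differences were below 0. The extremes were H2AC4 (−0.63) and H1-6 (0.56, adjusted p = 0.0854, the smallest among members). In FGF19 + TNFα against FGF19 again 0 members passed, where 0.282% of all probesets did, and the members had a median of −0.09. Here 6 members, beside 2000 of all 33297 probesets, had an unadjusted p under 0.05. The test of whether the FGF19 difference itself changed with TNFα called 0 members and 0% of all probesets. At an unadjusted p under 0.05 it had 4 members, beside 1715 of all 33297 probesets. Genes that passed in 1 FGF19 comparison and not in the other, such as H2BC11, H2AC12 or H3C3, are therefore not shown to differ between the 2 comparisons. For H1-6 the rise was smaller with TNFα by 0.54 on the log2 scale (95% interval of the difference −0.90 to −0.19, adjusted p = 0.882).

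Genes that act on histone mRNA were called in both directions, with higher calls near the share of all probesets. Of 19 measured genes of histone mRNA transcription, processing and decay, 6 were lower and 5 higher with FGF19 without TNFα. With TNFα present 3 were lower and 5 higher. In the first comparison 14.1% of all probesets were lower and 18.2% higher, and in the second 12.9% and 19.4%. Most of the 19 genes were above the array medians. Among probesets above the median signal, 24.5% were lower in the first comparison and 22% in the second. SLBP, whose product binds the stem-loop, had 765 and 832 in Mock, 1405 and 1196 after FGF19, 684 and 640.1 after TNFα, and 1359 and 1297 after both, so that it was higher on every FGF19 array (log2 differences 0.70 and 1.00, adjusted p = 0.00604 and 0.00354 from limma). NPAT (0.88 and 0.80) and CASP8AP2 (0.83 and 0.87), which act at the histone locus, also rose in both. LSM10, a subunit of the U7 snRNP that cuts histone pre-mRNA, fell (−1.39 and −1.19), as did CDK9 (−1.14 without TNFα), the kinase of transcription elongation, and SYMPK (−0.60 and −0.53), of the cleavage complex.

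Variant and replication-independent histone genes were lower as well. Of 9 measured, 7 were lower and 0 higher with FGF19 without TNFα, and 6 and 0 with it. For these and the next lists the same shares of all probesets apply, with 24.5% and 22% lower among the brighter probesets. H2AZ1, the main H2A.Z gene, had 1926 and 2284 in Mock and 996 and 1077 with FGF19 (log2 difference −1.02, adjusted p = 0.00287 from limma), and the damage-marking variant H2AX had 312 and 339 against 173 and 203 (−0.80, adjusted p = 0.0106). Of 22 histone chaperone genes 8 were lower and 2 higher without TNFα, and 6 and 4 with it. The higher calls were under the share of all probesets without TNFα and near it with TNFα. Without TNFα, ASF1B (−1.12) was among the lower and ATRX (1.27) and MMS22L (0.91) were the higher ones. Of 22 S phase genes 11 were lower and 2 higher without TNFα, and 11 and 3 with it. The replicative helicase genes MCM2 (−1.16), MCM7 (−1.08) and MCM5 (−1.02) and the thymidine kinase gene TK1 (−1.12) were lower, whereas MCM6 (0.32) and the polymerase gene POLA1 (0.56) were higher, and CCNA2 (0.02) and RRM2 (−0.08) did not pass.

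The arrays as a whole also differed with FGF19. Array medians of signal were 99.5 to 106.6, and the 20th percentile was 30.7 to 31.6 without FGF19 and 34.6 to 36.6 with it, a shift whose part in the histone results was not tested. Arrays of 1 group correlated at r = 0.967 to 0.980 over all probesets and arrays that differed in FGF19 at 0.933 to 0.959. The epithelial markers KRT8, KRT18, EPCAM and CDH1 were above the median of all 8 arrays, while the leukocyte marker PTPRC was below the 20th percentile of all 8 and the endothelial marker PECAM1 below the median. The fibroblast marker COL1A1, at 102 to 125, was close to the array medians and above them on 7 of 8 arrays, and it was not called in any comparison. KRT8 was itself lower with FGF19 (−1.05).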

How the data were processed

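The authors deposited linear signal intensity for 33297 probesets on 8 arrays, made with Affymetrix Expression Console and PLIER per the submitters' processing notes; their versions, and how arrays were normalized, are not given in the sources used for this report. The table held 0 columns of other samples. Members and gene lists were chosen with earlier results of these data known. Probeset symbols came from the platform annotation, which gave 1 symbol for 19460 probesets, more than 1 for 1754 and none for 12083. Current names were found through Entrez identifiers for 19429 (RefSeq, GRCh38.p14).

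The 240 zeros were replaced by 0.01, the lowest positive value, and signals were taken to log2 with no further scaling. The 4 groups were compared in 1 model of the 8 arrays (lmFit and eBayes of limma 3.58.1, R 4.3.3), with Benjamini-Hochberg adjustment over all probesets and a threshold of 0.05. The steps were tested on simulated data. The number of arrays limits the precision. Folds are ratios of geometric means. A gene was called dim, with no fold, below the 20th percentile of every array of both groups.

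The rule for genes given with values took, per histone type, up to 4 called falls and 3 called rises with the greatest change in each FGF19 comparison, every member called in the other comparisons, and the member with the smallest difference among those above the median signal. Members named beside these, such as H2AC14 and H2BC12, were chosen after their values were seen, as were the pair ratios. From each gene list only some of the called genes were named above, and not always those with the strongest changes. H3-5 (−1.08) and CDK2 (−0.85) were also lower in FGF19 against Mock. CCNA2 and RRM2 were chosen after their values were seen. Of the markers, KLK3 was above the median on 0 arrays.

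Other settings tried were normalization by quantiles or by cyclic loess, an offset of 16, the dimmest 20 percent left out, no moderation of variances, a trended and robust prior, only the groups compared, the replicate number as a block, the brightest probeset per gene, and each array left out in turn. Promoter windows came from RefSeq, and pairs were start sites on opposite strands at most 1000 bases apart. Figures were drawn with matplotlib 3.10.9.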

Additional observations from a re-analysis of the deposited data

How the results depend on the processing

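In FGF19 against Mock, where 35 members were called, 23 were called with no moderation of variances (19 lower, 4 higher) and 23 with only the groups compared (21 lower, 2 higher). Leaving out 1 array gave 16 to 33, with 22 without Mock replicate 1 and 16 without Mock replicate 2. In FGF19 + TNFα against TNFα, where 27 were called, leaving out 1 array gave 14 to 28, with 16 without TNFα replicate 1, 14 without TNFα replicate 2, 17 without FGF19 + TNFα replicate 1 and 14 without FGF19 + TNFα replicate 2. In TNFα against Mock, where 0 were called, 1 was called with the dimmest 20 percent left out (H1-6, higher by 0.56 on the log2 scale, adjusted p = 0.0404 from limma) and 1 with a trended and robust prior (H3C11, −0.53, adjusted p = 0.0398). FGF19 + TNFα against FGF19 and the interaction gave 0 calls in every setting run. The differences between replicates correlated weakly between groups (r −0.02 to 0.195, the highest between FGF19 and FGF19 + TNFα). This cannot show whether same-numbered arrays were handled together, and the labels do not say. The fit with the replicate block called 34 members (31 lower, 3 higher) in the first comparison, 26 (23 lower, 3 higher) in the second and 0 in the others. Quantile normalization called 35 and 30 members and cyclic loess 34 and 31, and they moved the median of all probesets in FGF19 against Mock from 0.08 to 0.00. After seeing the data, H4C14 and H4C15 were counted once (34 and 26 calls), and probesets with several symbols were added (45 and 37). Of the members named by the rule, 12 of 21 and 9 of 16 were called in every setting, and none reversed. The brightest probeset per gene changes nothing, since each gene had 1. The cause of these differences was not tested.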

Other observations

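A further 20 probesets, holding 17 separate sets of values, carried several gene symbols of which at least 1 met the naming rule, so that their signal cannot be given to 1 gene. In each of the 2 FGF19 comparisons 10 of them, with 8 separate sets of values, were lower with FGF19 and 0 were higher (limma, adjusted p under 0.05), beside 14.1% and 12.9% of all probesets that were lower.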
